A study of Arabidopsis thaliana with 6 samples.

Results

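The 10 genes described here encode the sucrose synthases SUS1 to SUS6 and 4 acid invertases of Arabidopsis thaliana, chosen by locus number from the 33602 loci of a table of RPKM values (reads scaled by gene length and library total). The 6 sucrose synthase loci were AT5G20830 (SUS1), AT5G49190 (SUS2), AT4G02280 (SUS3), AT3G43190 (SUS4), AT5G37180 (SUS5) and AT1G73370 (SUS6). The acid invertases were the cell wall enzymes cwINV2 (AT3G52600) and cwINV4 (AT2G36190) and the vacuolar enzymes ATBETAFRUCT4 (AT1G12240) and AT1G62660, which carries no other symbol in the annotation. All 10 reached the mean of 1 RPKM required for the test.

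RNA came from F1 endosperm nuclei isolated by INTACT, which captures nuclei by a tagged envelope protein, at 4 days after pollination. In Cm x L, the Columbia-0 line TEmob was the mother and Landsberg erecta (Ler) the father. In L x Cm, a Ler pistillata mutant was the mother and TEmob the father. Each cross had 3 libraries, numbered 1 to 3, with no statement that they came from separate plants, so a p-value reflects only how these libraries varied, which may be technical. TEmob is a single diploid line. It descends from seeds germinated with α-amanitin and 40 µM zebularine and kept at 37 °C, and was recovered by colchicine from haploid offspring of a cross to CENH3-TAILSWAP cenh3 plants. Both crosses carry its genome, and no endosperm of untreated Columbia was analysed here. The direction of the cross also sets which accession gave the larger genome dose, whether the mother was pistillata and which parent supplied the INTACT tag, and these cannot be told apart.

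Sucrose unloaded from the phloem is the main carbon supply of a growing seed. Sucrose synthase splits it reversibly with UDP into UDP-glucose and fructose, whereas invertases hydrolyse it irreversibly to glucose and fructose, in the cell wall, the vacuole or, for the neutral enzymes, the cytosol and organelles. In Arabidopsis seeds SUS2 and SUS3 are known as isoforms of the maturing seed, SUS5 and SUS6 as isoforms of phloem sieve elements, cwINV2 and cwINV4 as genes of reproductive tissue, and cwINV4 also as the invertase needed for nectar secretion.

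Library totals recovered from the values ranged from 22.2 to 29.2 M reads for Cm x L and from 21.2 to 27.2 M reads for L x Cm. The members held 0 to 1580 reads in a library, with 7 of their 60 values under 30 reads. Cm x L replicates 1 and 3 stood apart in having many loci listed at 0, 5036 and 10084, against 1005 in Cm x L replicate 2 and 1270 to 3636 in L x Cm. All 10 endosperm markers were above 0 in every library, from ZOU, with the highest mean, to IKU2, with the lowest. Of them 1, FIS2, was called higher in Cm x L and 2, MINI3 and IKU2, lower. These shares were near those of all loci tested, 6.73% higher and 18.3% lower. The summed level of the endosperm markers was 305 to 377 RPKM in Cm x L and 453 to 516 RPKM in L x Cm. Seed coat markers, from BAN to TT10, were also above 0 in every library, at a sum of 164 to 487 RPKM in Cm x L and 287 to 561 RPKM in L x Cm. The seed coat is maternal tissue. In bulk RNA, fewer cells of a type and less RNA per cell cannot be told apart.

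For chosen pairs of members, the longest exact stretch that both share is given, as a guide to where exact matches cannot tell them apart. SUS2 and SUS3 were in no chosen pair, and SUS3 and SUS5 shared 25 bases. The stretches were read from RefSeq transcripts of TAIR10.1, 5′ to 3′ on the coding strand, with the shared bases in capitals and 10 bases of each gene on either side in lower case. SUS1 and SUS4 shared 38 bases, AT1G62660 and ATBETAFRUCT4 32, cwINV2 and cwINV4 29, and SUS5 and SUS6 26.
SUS1: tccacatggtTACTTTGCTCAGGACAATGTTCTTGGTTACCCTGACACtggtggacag
SUS4: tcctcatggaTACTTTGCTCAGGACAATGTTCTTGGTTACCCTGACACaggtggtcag
SUS5: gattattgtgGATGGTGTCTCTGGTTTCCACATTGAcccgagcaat
SUS6: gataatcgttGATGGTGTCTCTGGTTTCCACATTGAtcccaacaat
cwINV2: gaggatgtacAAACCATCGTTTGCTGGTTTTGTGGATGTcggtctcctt
cwINV4: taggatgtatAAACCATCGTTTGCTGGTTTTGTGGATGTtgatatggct
AT1G62660: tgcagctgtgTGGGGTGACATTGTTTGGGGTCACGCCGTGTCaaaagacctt
ATBETAFRUCT4: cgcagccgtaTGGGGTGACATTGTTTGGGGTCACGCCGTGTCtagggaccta
The bases next to each stretch differ by definition. No 50-base word in the exons of the other 9 members was found elsewhere in the genome, and in SUS5 only 1 of 2430 such words was. An exact match of that length thus points to 1 member almost everywhere. Matches with mismatches and the length of the reads were not considered.

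Of the 10 members, 4 were lower in Cm x L than in L x Cm and none was higher, by limma at an adjusted p under 0.05. The 4 were SUS5, SUS3, SUS6 and ATBETAFRUCT4, and at an unadjusted p under 0.05 there were 6 lower and 0 higher. Of all 26620 loci tested, 18.3% were called lower and 6.73% higher. The members' median difference, Cm x L minus L x Cm in log2(RPKM + 1), was −0.76, against −0.22 over all loci.

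That background depended on level. Among loci with a mean of 1 to 5 RPKM, 33.2% were called lower and 0.465% higher, with a median difference of −1.12, and 2 of the 6 members in that range, SUS3 and SUS5, were called lower. Among loci of 5 to 20 RPKM, 13.4% were called lower and 6.35% higher, with a median difference of −0.05, and 2 of the 4 members there, SUS6 and ATBETAFRUCT4, were called lower. In 6 of the 10 members every Cm x L library lay below every L x Cm library, which held for 29.8% of all loci, and in 0 members did every Cm x L library lie above, which held for 15.7%. Lying wholly below held for 4 of the 6 members of 1 to 5 RPKM and for 4903 of the 9455 loci of that level. At 5 to 20 RPKM it held for 2 of the 4 members and for 1976 of 8662 loci. The share of low members called lower was thus close to that of other low loci.

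**Figure D1:**
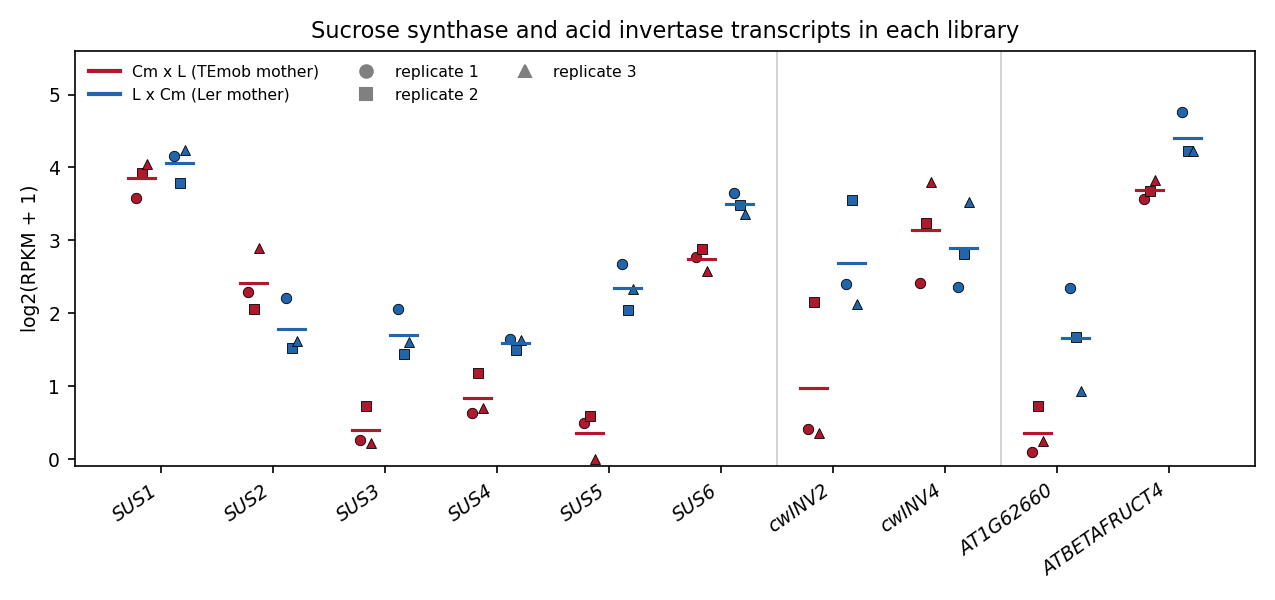
Level of each of the 10 members in log2(RPKM + 1), with Cm x L (red) beside L x Cm (blue), 1 symbol per library by replicate number and a line at the mean of the log2 values of the 3 libraries. SUS1 and ATBETAFRUCT4 lie highest among the members in Cm x L, and the red and blue symbols of SUS3, SUS4, SUS5, SUS6 and both vacuolar invertases do not overlap.

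SUS5, a sieve element isoform, had the largest difference of the 10 members in the fit as reported. The Cm x L libraries held 0.409, 0.507 and 0 RPKM, in the order of their replicate numbers as throughout, and the L x Cm libraries 5.37, 3.14 and 4.02 RPKM, from 30, 30 and 0 reads against 367, 171 and 214 reads. All Cm x L libraries were below all L x Cm libraries, and the absence of reads in Cm x L replicate 3 allows a level of up to 0.0539 RPKM, counting error only. Mean levels were 0.305 ± 0.269 RPKM and 4.18 ± 1.13 RPKM (SD, n = 3 libraries per cross), a ratio of 13.7 in favour of L x Cm. On the log2(RPKM + 1) scale, which understates changes of low genes, the difference was −1.99 (SE 0.36, 95% interval −2.82 to −1.16, adjusted p = 0.0112). SUS5 was called lower in all 6 fits that left out 1 library. After quantile normalization, which gives every library the same distribution of values, the difference was −0.88 with an adjusted p of 0.0788.

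SUS6, the other sieve element isoform and the sister gene of SUS5, was lower in Cm x L by a smaller amount from a higher level. It stood at 5.85, 6.34 and 4.96 RPKM in Cm x L and at 11.5, 10.2 and 9.26 RPKM in L x Cm, without overlap. The means were 5.72 ± 0.70 RPKM and 10.3 ± 1.1 RPKM, a ratio of 1.80, and the difference of −0.75 (SE 0.22, 95% interval −1.27 to −0.24) had an adjusted p of 0.0432. That call was lost in each of the 6 fits without 1 library, where the difference ranged from −0.82 to −0.67. It was also lost after quantile normalization, at −0.48 with an adjusted p of 0.164.

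Of 3 phloem markers 1 was called lower, 1 did not pass and 1 was too low for the test, while 18.3% of all loci tested were called lower. The companion cell sucrose carrier SUC2 was lower in Cm x L, at 5.18 ± 1.90 RPKM against 13.0 ± 2.9 RPKM (−1.21, adjusted p = 0.028). The sieve element protein gene SEOR1, the lowest of the 3 phloem markers, was at 0 in Cm x L replicate 3, at 0.0538 and 0.584 RPKM in replicates 1 and 2 and at 0.943 to 1.65 RPKM in L x Cm. AHA3, a plasma membrane proton pump and the highest of the 3, stood at 10.3 to 30.2 RPKM and 23.2 to 29.1 RPKM and did not pass (adjusted p = 0.174). The summed level of the 3 was 13.4, 19.9 and 36.9 RPKM in Cm x L and 47.0, 35.8 and 40.4 RPKM in L x Cm. In Cm x L replicate 3, where SUS5 and SEOR1 were at 0, AHA3 made up 30.2 of the 36.9 RPKM. Their part in the SUS5 and SUS6 differences was not tested.

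SUS3, an isoform of late seed development, was lower in Cm x L. Its levels were 0.199, 0.654 and 0.170 RPKM in Cm x L and 3.15, 1.72 and 2.05 RPKM in L x Cm, from 11 to 45 and 109 to 250 reads. The groups did not overlap, and the means of 0.341 ± 0.272 RPKM and 2.31 ± 0.75 RPKM gave a ratio of 6.76. The difference was −1.30 (SE 0.37, 95% interval −2.14 to −0.45, adjusted p = 0.0382). The call held in 1 of the 6 fits without 1 library, and quantile normalization brought the difference to 0.016 (adjusted p = 0.969).

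SUS2, the other isoform known from maturing seeds, did not pass the test. It stood at 3.90, 3.16 and 6.42 RPKM in Cm x L and at 3.65, 1.89 and 2.08 RPKM in L x Cm, so that Cm x L replicate 3 was highest and the crosses overlapped. Its means were 4.49 ± 1.71 RPKM and 2.54 ± 0.96 RPKM, with a difference of 0.62 (SE 0.36, 95% interval −0.20 to 1.44, adjusted p = 0.217). After quantile normalization SUS2 was called higher in Cm x L, at 1.52 with an adjusted p of 0.0259.

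SUS1, a widely expressed isoform, was the most abundant of the 6 in every library. It stood at 10.9, 14.2 and 15.6 RPKM in Cm x L and at 16.8, 12.8 and 17.8 RPKM in L x Cm. The ranges overlapped, and the means were 13.6 ± 2.4 RPKM and 15.8 ± 2.6 RPKM. The difference of −0.21 (SE 0.22, adjusted p = 0.497) had a 95% interval of −0.70 to 0.29. SUS4, its closest relative in the family, was far less abundant. It stood at 0.545, 1.26 and 0.621 RPKM in Cm x L and at 2.13, 1.82 and 2.1 RPKM in L x Cm. The crosses did not overlap and the means, 0.808 ± 0.392 RPKM and 2.01 ± 0.17 RPKM, had a ratio of 2.49, yet the difference of −0.76 (SE 0.34, 95% interval −1.54 to 0.03) did not pass (adjusted p = 0.132). After quantile normalization its sign was positive (0.47, adjusted p = 0.245).

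**Figure D2:**
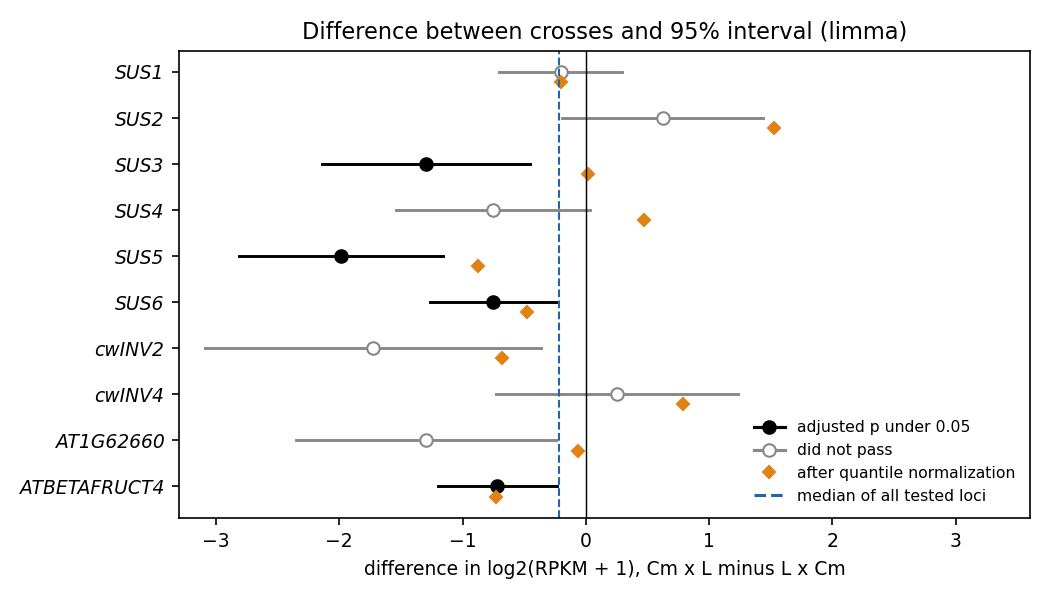
Difference between crosses for each member in log2(RPKM + 1), Cm x L minus L x Cm, with its 95% interval from limma (filled black, adjusted p under 0.05; open grey, not passed), the value after quantile normalization (orange diamonds) and the median of all tested loci (dashed line). SUS5 lies farthest to the left at −1.99, and the diamonds of SUS2, SUS3, SUS4 and cwINV4 lie right of 0.

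Summed over the 6 genes, sucrose synthase transcripts stood at 21.8, 26.2 and 27.8 RPKM in Cm x L and at 42.6, 31.6 and 37.4 RPKM in L x Cm, and every Cm x L library was lower. SUS1 made up 50.1, 54.4 and 56.2% of the sum in Cm x L and 39.4, 40.7 and 47.8% in L x Cm. SUS2 took 12.1 to 23.1% in Cm x L and 5.58 to 8.56% in L x Cm. These 2 isoforms therefore had a larger share in every Cm x L library than in any L x Cm library. SUS3 took 0.613 to 2.50% in Cm x L and 5.46 to 7.40% in L x Cm, and SUS5 took 0 to 1.94% and 9.95 to 12.6%. SUS4 took 2.24 to 4.81% and 5.00 to 5.76%, and SUS6 took 17.9 to 26.8% and 24.8 to 32.2%, the shares of SUS6 overlapping between crosses. SUS1 and SUS6 together held 74.0 to 78.7% of the sum in Cm x L and 66.4 to 72.8% in L x Cm. RPKM is per length, so these shares compare transcripts of the isoforms within a library.

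**Figure D3:**
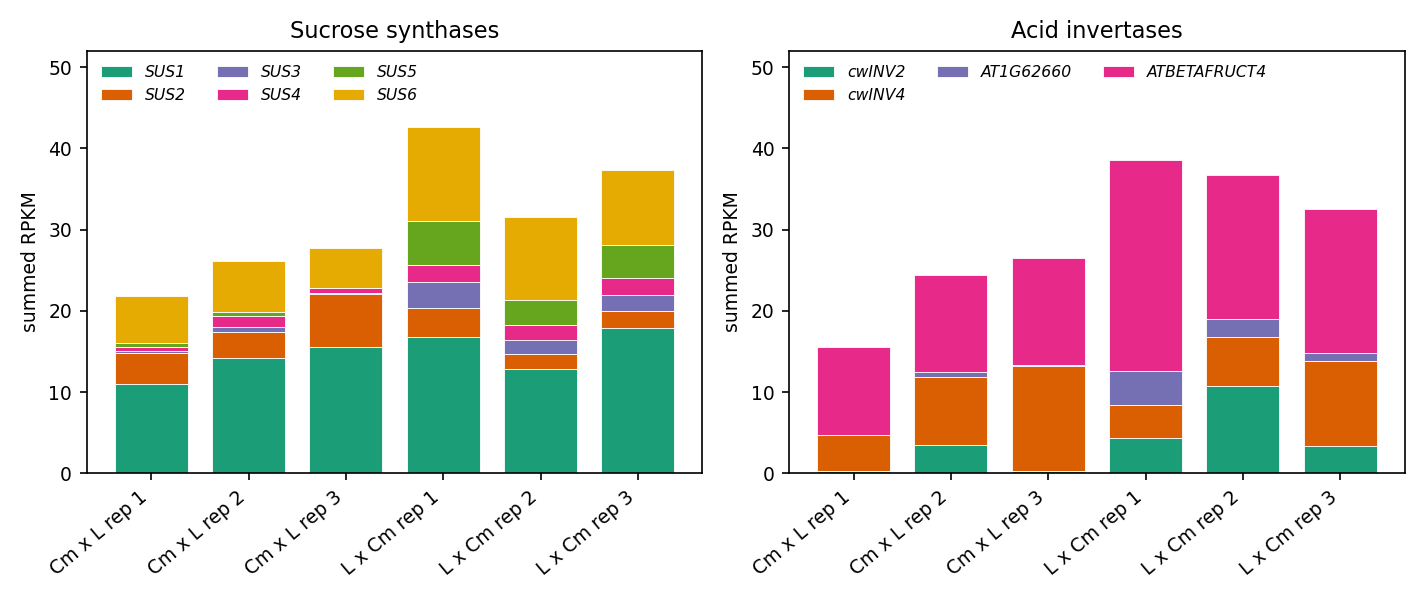
RPKM of the 6 sucrose synthases (left) and of the 4 acid invertases (right) in each library, stacked by gene. The sucrose synthase sum is 21.8 to 27.8 RPKM in Cm x L and 31.6 to 42.6 RPKM in L x Cm, and the invertase sum 15.5 to 26.5 RPKM and 32.6 to 38.6 RPKM.

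ATBETAFRUCT4, a vacuolar invertase, was lower in Cm x L. Its levels were 10.8, 11.8 and 13.1 RPKM in Cm x L and 26.1, 17.7 and 17.8 RPKM in L x Cm, with L x Cm replicate 1 highest and no overlap. The means were 11.9 ± 1.2 RPKM and 20.5 ± 4.8 RPKM, a ratio of 1.72. The difference was −0.72 (SE 0.21, 95% interval −1.20 to −0.23, adjusted p = 0.0421), and it was −0.73 after quantile normalization, where the adjusted p was 0.0561. The call held in 2 of the 6 fits without 1 library, with differences from −0.81 to −0.54.

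AT1G62660, the other vacuolar invertase, was low and did not pass. It stood at 0.0704, 0.664 and 0.186 RPKM in Cm x L, from 5, 38 and 10 reads, and at 4.10, 2.20 and 0.913 RPKM in L x Cm, from 271, 116 and 47 reads. The crosses did not overlap and the means of 0.307 ± 0.315 RPKM and 2.41 ± 1.61 RPKM had a ratio of 7.84. The difference was −1.30 (SE 0.46, 95% interval −2.35 to −0.24, adjusted p = 0.0702). Without L x Cm replicate 3 it was called lower, at an adjusted p of 0.0299, and after quantile normalization the difference was −0.06 (adjusted p = 0.89). ATBETAFRUCT4 supplied 94.7 to 99.4% of the vacuolar sum in Cm x L and 86.4 to 95.1% in L x Cm. The vacuolar sum was 10.9, 12.5 and 13.3 RPKM in Cm x L and 30.2, 19.9 and 18.7 RPKM in L x Cm.

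SUS3, SUS4, SUS5, SUS6, AT1G62660 and cwINV2 were each highest, within Cm x L, in replicate 2. That library had the fewest loci at 0 of its cross, and SUS5 had 30 reads in both replicates 1 and 2. SUS2, SUS3, SUS4, SUS5, SUS6 and both vacuolar invertases were each highest, within L x Cm, in replicate 1. The embryo shares the seed with the endosperm. Of 9 embryo markers 7 passed as lower in Cm x L, against 18.3% of all loci tested. WOX8, the highest, stood at 66.2 to 165 RPKM in Cm x L and 28.3 to 69.2 RPKM in L x Cm and did not pass. WOX2, with the lowest mean over all 6 libraries, stood at 0 to 0.948 RPKM and 1.30 to 7.01 RPKM and did not pass either. The embryo sum was 170, 129 and 71.8 RPKM in Cm x L and 121 to 132 RPKM in L x Cm, so the sums overlapped. WOX8 alone made up 165, 117 and 66.2 RPKM of the Cm x L sums. In 8 of the 9 markers, all but WOX8, every Cm x L library lay below every L x Cm library. The median difference of the 9 was −2.07, against −0.22 over all loci. The Cm x L sums thus mostly follow WOX8 and do not show the lower level of the other markers. At 0 were 2, 0 and 3 of the 9 markers in Cm x L replicates 1 to 3. The part of embryo RNA in the differences was not tested.

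The cell wall invertases, which split sucrose outside the cell on its way into the endosperm, did not pass the test. cwINV2 stood at 0.327, 3.45 and 0.281 RPKM in Cm x L and at 4.31, 10.7 and 3.38 RPKM in L x Cm, so replicate 2 was highest in each cross and the crosses overlapped. Its means were 1.35 ± 1.82 RPKM and 6.14 ± 3.99 RPKM, with a difference of −1.72 (SE 0.59, 95% interval −3.09 to −0.36, adjusted p = 0.0649). Without Cm x L replicate 2, cwINV2 was called lower in Cm x L, with a difference of −2.31 and an adjusted p of 0.0273. After quantile normalization the difference was −0.68 (adjusted p = 0.444). The gene overlaps 42 bases of UBQ1 (AT3G52590) on the opposite strand, and UBQ1 stood at 211 to 314 RPKM, and since no use of strand is stated, reads of the pair cannot be told apart there.

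Pollen markers followed the same order of libraries as cwINV2 within Cm x L. The summed level of 6 pollen markers was 103, 582 and 55.9 RPKM in Cm x L and 690, 2579 and 966 RPKM in L x Cm, highest in replicate 2 of each cross. Of these 6 genes 4 were called lower in Cm x L and 0 higher, against 18.3% and 6.73% of all loci tested. AGP23, the highest, stood at 28.0 to 314 RPKM in Cm x L and 210 to 904 RPKM in L x Cm and did not pass, and the sucrose carrier SUC1, the lowest, was called lower at 1.20 ± 0.86 RPKM against 4.40 ± 1.38 RPKM (adjusted p = 0.0442). The part of pollen RNA in the cwINV2 values was not tested.

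cwINV4 stood at 4.34, 8.41 and 12.9 RPKM in Cm x L and at 4.13, 6.02 and 10.5 RPKM in L x Cm. Replicate 1 was lowest and replicate 3 highest in each cross, and the crosses overlapped over most of their range. Its means were 8.54 ± 4.27 RPKM and 6.88 ± 3.26 RPKM, with a difference of 0.25 (SE 0.43, 95% interval −0.73 to 1.24, adjusted p = 0.681). Its sign depended on single libraries, since the difference was −0.07 without Cm x L replicate 3, −0.02 without L x Cm replicate 1 and 0.62 without Cm x L replicate 1. After quantile normalization it was 0.79 (adjusted p = 0.347). The summed seed coat markers ranked the libraries alike within each cross, at 164, 221 and 487 RPKM in Cm x L and 287, 422 and 561 RPKM in L x Cm. None of these 8 markers passed the test, while 18.3% of all loci tested were called lower and 6.73% higher. Their part in the cwINV4 values was not tested. cwINV2 made up 7.02, 29.1 and 2.13% of the pair's sum in Cm x L and 51.1, 64.0 and 24.4% in L x Cm, so the shares overlapped only between Cm x L replicate 2 and L x Cm replicate 3.

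**Figure D4:**
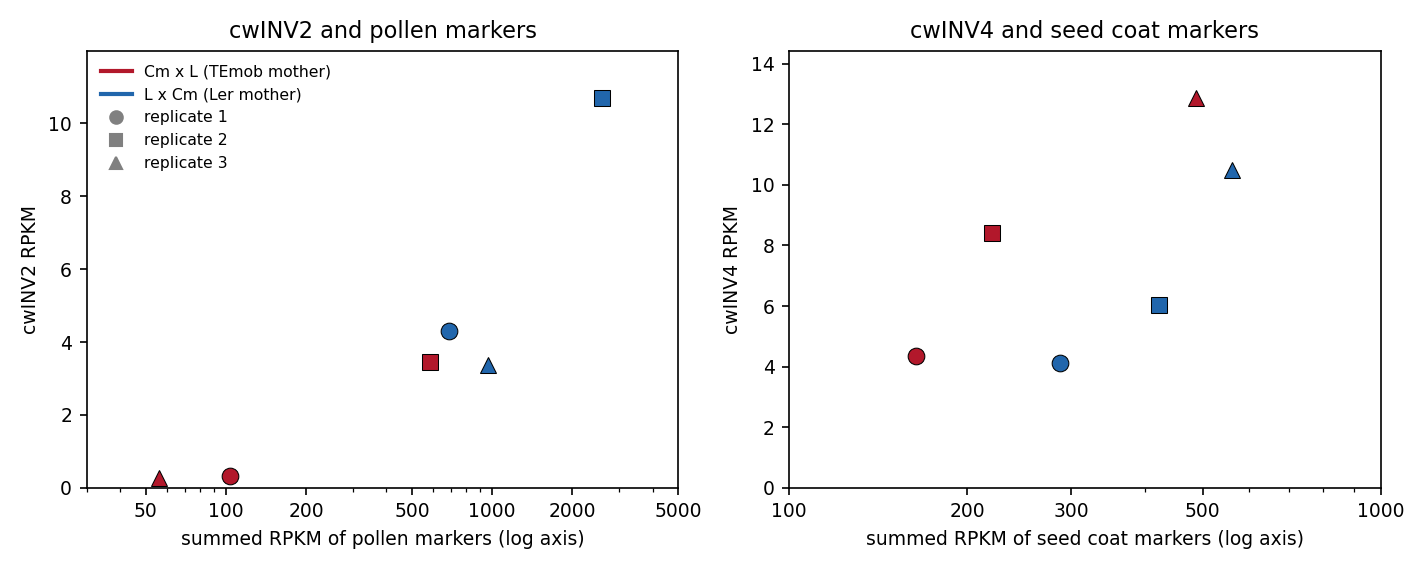
RPKM of cwINV2 (linear axis) against the summed RPKM of 6 pollen markers (log axis, left) and of cwINV4 against that of 8 seed coat markers (right), 1 symbol per library, red for Cm x L and blue for L x Cm, shaped by replicate number. Replicate 2 is highest on both axes of the left panel in each cross, and replicate 3 on both axes of the right panel.

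The order of levels differed between the crosses. In Cm x L it ran SUS1, ATBETAFRUCT4, cwINV4, SUS6, SUS2, cwINV2, SUS4, SUS3, AT1G62660 and SUS5, and the ranges of every neighbouring pair overlapped. In L x Cm it ran ATBETAFRUCT4, SUS1, SUS6, cwINV4, cwINV2, SUS5, SUS2, AT1G62660, SUS3 and SUS4, and only SUS1 and SUS6 were neighbours whose ranges did not overlap. The 4 acid invertases summed to 15.5, 24.3 and 26.5 RPKM in Cm x L and 38.6, 36.7 and 32.6 RPKM in L x Cm. Their ratio to the sucrose synthase sum was 0.712 to 0.954 in Cm x L and 0.872 to 1.16 in L x Cm, which overlap.

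Of 41 genes that act before, after or beside these enzymes 40 were tested, the fructokinase locus AT4G10260 being too low, and 4 were higher in Cm x L, 6 were lower and 30 were not called, with a median difference of −0.15. Both shares were near those of all loci, 6.73% higher and 18.3% lower. Among the other cell wall invertase family genes 2 of 4 were lower, and none was higher. They were cwINV5, at 0.918 ± 0.527 RPKM against 5.63 ± 1.49 RPKM (−1.81, adjusted p = 0.0142), and cwINV6, at 0.498 ± 0.246 RPKM against 3.77 ± 2.31 RPKM (−1.58, adjusted p = 0.0318). Both have a mean of 1 to 5 RPKM, where 33.2% of all loci were called lower. The Arabidopsis proteins cwINV3 and cwINV6 are known as fructan exohydrolases rather than invertases. cwINV3, the most abundant of the 4, stood at 3.97 ± 2.73 RPKM against 10.1 ± 2.9 RPKM and did not pass (adjusted p = 0.0573). Neither of the 2 invertase inhibitors passed. The more abundant, C/VIF1, stood at 5.15 ± 0.74 RPKM against 9.28 ± 2.72 RPKM (−0.71, adjusted p = 0.0951).

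Of the 9 neutral invertases 1 was higher and 1 lower. A/N-InvE, a plastid enzyme, was higher in Cm x L at 36.4 ± 5.3 RPKM against 21.2 ± 4.6 RPKM (0.76, adjusted p = 0.0349), and A/N-InvD was lower at 0.814 ± 0.279 RPKM against 5.04 ± 2.35 RPKM (−1.67, adjusted p = 0.0207). A/N-InvF, the most abundant, stood at 46.4 ± 14.0 RPKM against 70.8 ± 33.6 RPKM (adjusted p = 0.28). In the list for sucrose phosphate synthases and phosphatases, which make sucrose, 1 of 8 was lower and none higher. SPS2F was lower at 9.47 ± 4.14 RPKM against 19.1 ± 1.4 RPKM (−1.0, adjusted p = 0.036). The phosphatase AT2G35840, with the highest mean over all 6 libraries, stood at 35.2 and 45.0 RPKM (adjusted p = 0.33).

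The hexokinase and fructokinase lists, drawn up around kinases of the released hexoses, also held calls both ways. Of 4 genes in the hexokinase list, HKL1, which encodes a hexokinase-like protein, was higher at 29.5 ± 3.1 RPKM against 18.5 ± 2.4 RPKM (0.65, adjusted p = 0.032). HXK2 was lower at 11.9 ± 1.7 RPKM against 22.4 ± 4.2 RPKM (−0.86, adjusted p = 0.0245). The glucose sensor HXK1, the most abundant, stood at 42.6 ± 9.6 RPKM against 45.9 ± 3.4 RPKM (adjusted p = 0.637). Of 6 fructokinases tested, AT1G66430 was higher at 36.2 ± 8.3 RPKM against 14.3 ± 4.8 RPKM (1.30, adjusted p = 0.0152), AT1G06020 was lower at 2.69 ± 1.52 RPKM against 9.11 ± 3.39 RPKM (−1.46, adjusted p = 0.0346), and AT2G31390, the most abundant, stood at 58.2 and 57.7 RPKM (adjusted p = 0.999).

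Of the 2 UDP-glucose pyrophosphorylases, which turn over the UDP-glucose that sucrose synthase releases, neither passed, and UGP1, the more abundant, stood at 30.1 ± 11.6 RPKM against 34.0 ± 6.3 RPKM (adjusted p = 0.565). ADP-glucose pyrophosphorylase makes the substrate of starch synthesis, and 1 of its 5 subunit genes was higher in Cm x L and none lower, with a median difference of 0.75. APL2, a large subunit, stood at 59.0 ± 20.7 RPKM against 18.1 ± 1.5 RPKM (1.59, adjusted p = 0.00987) and was called in all 6 fits without 1 library. The other related genes with a call kept it in fewer of these 6 fits. The call held in 5 for cwINV5, 4 for AT1G66430 and 3 for A/N-InvD. It held in 2 for cwINV6, HXK2 and AT1G06020, 1 for A/N-InvE and SPS2F, and 0 for HKL1. After quantile normalization APL2, AT1G66430, HXK2 and SPS2F kept their calls. Those of cwINV5 (−0.90, adjusted p = 0.106), cwINV6, A/N-InvD, AT1G06020, A/N-InvE and HKL1 were lost. APL3 had the highest mean of the 5 over all 6 libraries, 39.3 RPKM against 38.5 RPKM for APL2, though APL2 was higher in Cm x L. It stood at 49.1 ± 8.7 RPKM in Cm x L against 29.5 ± 9.6 RPKM in L x Cm (0.75, adjusted p = 0.0723 for APL3).

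**Figure D5:**
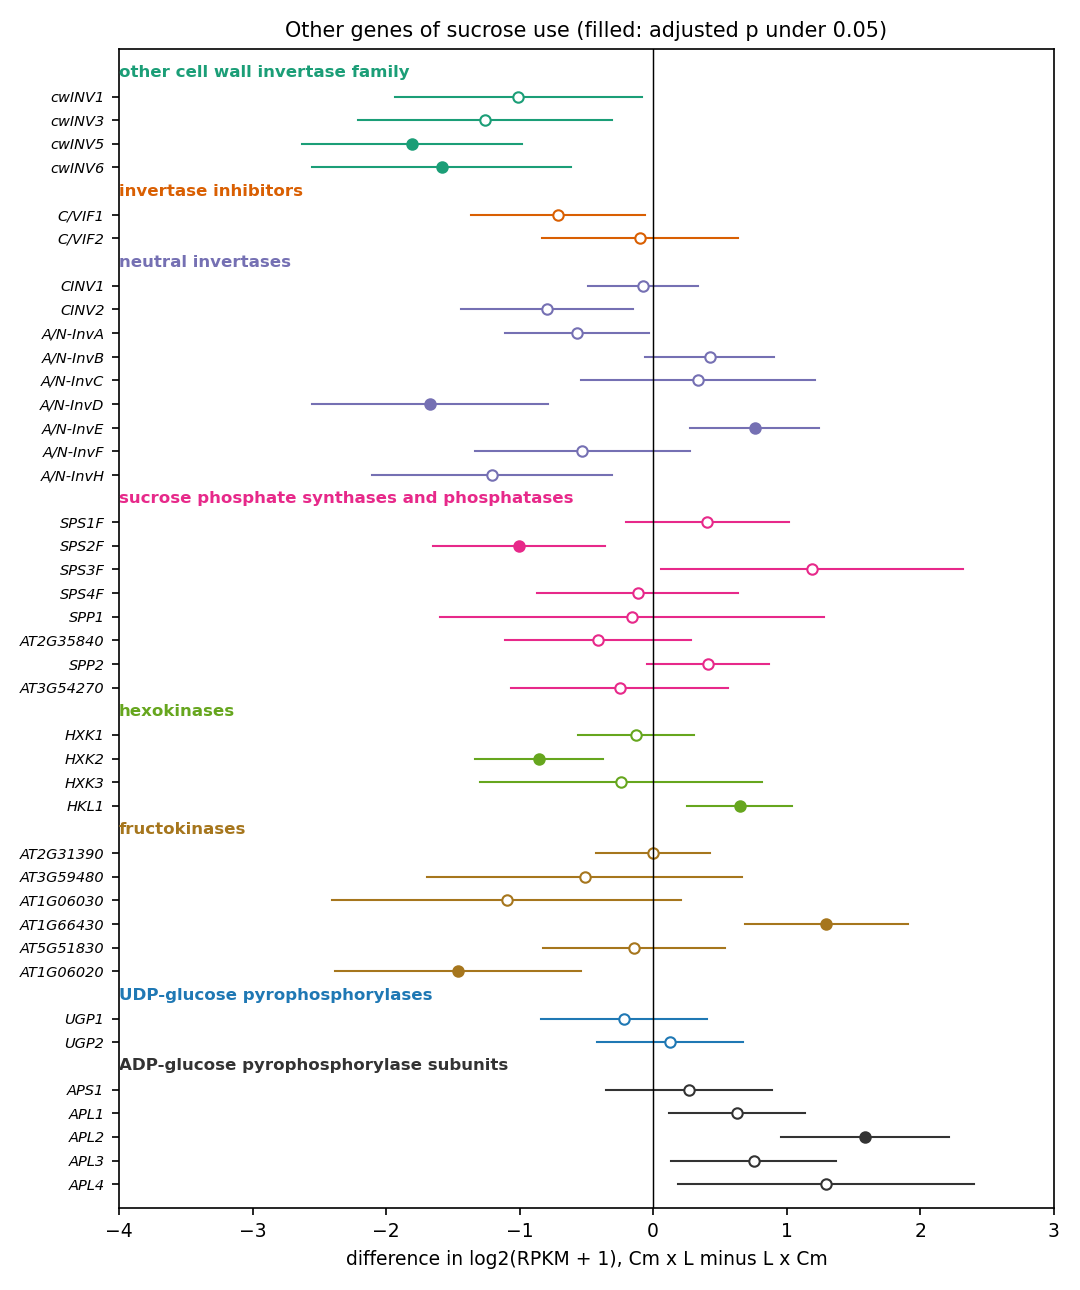
Difference between crosses, Cm x L minus L x Cm in log2(RPKM + 1), with its 95% interval from limma, for the 40 related genes tested, grouped by list, with filled points at an adjusted p under 0.05. Both filled cell wall invertase family genes lie left of 0, and the filled ADP-glucose pyrophosphorylase subunit, APL2, lies at 1.59.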

How the data were processed

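RNA-seq of INTACT-purified endosperm nuclei was measured in 3 Cm x L and 3 L x Cm libraries. The deposited table holds RPKM values, which the authors scaled by gene length and library total, as the table's name states. The submitters' processing notes name TopHat2 2.1.0 and the build TAIR10. How reads were counted, and whether by strand, is not given in the sources used here. Column names give the parents in order and the replicate number but lack the tag that marks TEmob. They were matched to samples on that basis, since every RNA-seq sample given is a TEmob cross, and 0 columns had no sample.

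The cross directions were compared on log2(RPKM + 1) in limma 3.58.1 (R 4.3.3), with a moderated 2-sided test with intensity trend and no other term. Loci entered if their mean was 1 RPKM or more, and p-values were adjusted over all of them by Benjamini-Hochberg, with a threshold of 0.05. An exact test of 3 against 3 libraries cannot go below 0.1.

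Library totals and reads per member were recovered from the RPKM steps. Low pseudogene values came out whole within 0.02 reads for 75.5 to 89.8% of them. For each member 1 gene length, the smallest that did so, made reads whole within 0.05 in all 6 libraries. Library totals limit counting error only. Names, exons and sequences came from RefSeq gene models of TAIR10.1, to which 32835 of 33602 loci matched. The authors' build has another name, so no genome coordinates are given.

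The members and gene lists were chosen with earlier results of these data known. All members are named. Of each related list, genes with an adjusted p under 0.05 and the gene with the highest mean are named, and of each marker list those with the highest and lowest mean. UBQ1 was named for its overlap with cwINV2. Alternatives were another pseudocount (0.1), no filter, a filter at 5 RPKM, median-of-ratios scaling, quantile normalization, no intensity trend, a replicate block and leaving out libraries. Python 3.11.15, pandas 2.3.3, numpy 2.4.6 and matplotlib 3.10.9 were used.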

Additional observations from a re-analysis of the deposited data

How the results depend on the processing

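In all, 14 alternatives were run, 13 of which tested members under 5 RPKM. The calls of SUS5 held in 11 of 13, of SUS3 in 4 of 13, and of SUS6 and ATBETAFRUCT4 in 3 of 14. Of the loci, 1792 were called higher and 4870 lower as reported, and of the related genes 4 and 6. With a filter at 5 RPKM 1322 loci, 0 members (2 of the 4 tested at an unadjusted p under 0.05) and 1 related gene were called lower. With median-of-ratios scaling 2 members, SUS3 and SUS5, were lower. With no intensity trend 2 related genes were higher. Quantile normalization moved the median of all loci from −0.22 to 0.04. It left 1739 loci, 0 members (2 unadjusted) and 2 related genes lower and 1 member and 2 related genes higher, and the difference of SUS3 turned to 0.016. SUS1 moved from −0.21 to −0.20 and the values of the other members stand beside their results. Leaving out 1 library gave 359 to 2280 loci higher and 1243 to 5231 lower, 1 to 4 members lower, and 1 to 4 related genes higher and 0 to 11 lower. The 0 was without Cm x L replicate 1 (6 unadjusted) and the 11 without Cm x L replicate 3. SUS5 was lower in all 6 of these fits. Without replicate 2 of both crosses, an alternative chosen after seeing the data, limma called 0 loci, 0 members and 0 related genes in either direction, against 7483 loci and 4 members at an unadjusted p under 0.05. The cause was not tested. Same-numbered libraries deviated together with correlations of 0.0807, 0.146 and 0.204. Only L x Cm replicate 1 correlated better with another number, Cm x L replicate 2 (0.124). The labels do not pair the libraries, so they were not treated as pairs. With a replicate block 2 members, SUS5 and cwINV2 (adjusted p = 0.0184), were lower, and SUS3, SUS6 and ATBETAFRUCT4 were not called (0.0684, 0.057 and 0.0552). Depth limits the lowest members, since 3 reads of SUS5 are worth 0.0409 to 0.0563 RPKM.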
